A study of Homo sapiens with 4 samples.

Results

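The MYC, MAX and MXD network is described here through 10 genes, MYC, MYCL, MAX, MXD1, MXD3, MXD4, MXI1, MNT, MLX and MLXIP. The members were chosen by name, as the rows of the deposited count table whose Ensembl identifiers carry these symbols, and all 10 were found among the 61541 genes of the table. All 10 also passed the filter on low counts, which left 16863 genes for the test. MHCC97H, an established human hepatocellular carcinoma (HCC) cell line, was sequenced in 4 RNA libraries, 2 of control cells (shCon) and 2 of cells carrying a short hairpin RNA against UBXN1 (shUBXN1). UBXN1 is a UBX-domain cofactor of the segregase VCP, and the comparison asks which transcripts differ when it is depleted. No other genotype or treatment is named for either group. The groups are limited as a model by a single cell line, by a hairpin that the sources do not name for the sequenced cells, and by a control that the methods call shRFP and the sample labels shCon. Nothing states that the 2 libraries of a group came from separate cultures, so p-values measure only the spread between these samples, which may be technical.

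MYC proteins are basic helix-loop-helix leucine zipper transcription factors that bind DNA as dimers with MAX. The MYC-MAX dimer occupies E-boxes, of which CACGTG is the canonical form, recruits histone acetyltransferase complexes, and drives genes of ribosome assembly, nucleotide synthesis and cell cycle entry. MXD1, MXI1, MXD3, MXD4 and MNT dimerise with MAX as well, bind the same E-boxes and recruit SIN3-HDAC corepressors, so that they act as antagonists of MYC. MLX is the partner of MLXIP (MondoA), a glucose-responsive activator, and can also pair with MXD1, MXD4 and MNT. MYC is a recognised driver of liver cancer.

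The libraries held 23373700 to 27380508 counts, and genes of the mitochondrial genome took 5.28% and 5.59% of counts in shCon and 7.43% and 8.27% in shUBXN1. UBXN1 mRNA measured 67.1 and 77.3 CPM (counts scaled to library size with TMM factors) in shCon and 16.8 and 18.5 CPM in shUBXN1, a log2 fold change of -2.03 (SE 0.0963). Of 10 hepatocyte markers, 9 were tested, 1 was higher and 6 were lower in shUBXN1. Their summed level was 173 to 175 CPM in shCon and 97.6 to 102 CPM in shUBXN1, and GPC3 had no count in any library. Leukocyte markers summed to 91.2 to 99.6 CPM in shCon and 92.7 to 94.6 CPM in shUBXN1, with CD3E at 0 in all libraries, and of 3 tested 1 was higher (CD79A) and 2 were lower. Endothelial markers summed to 48.4 to 49.9 CPM in shCon and 92.6 to 99.5 CPM in shUBXN1 (2 of 3 tested higher), and fibroblast markers to 33.1 to 33.2 CPM and 17.1 to 19.7 CPM (1 of 3 higher, 2 lower). Epithelial markers summed to 4264 to 4431 CPM and 3407 to 3996 CPM (2 of 4 higher, 1 lower). These sums rested on few genes. CD68 carried most of the leukocyte sum (82.4 and 88.3 CPM in shCon) and LUM most of the fibroblast sum (31.7 and 32.3 CPM). PECAM1 (33.4 and 33.2 CPM in shCon) and KDR (14.6 and 15.8 CPM) carried most of the endothelial sum. PTPRC gave 2 and 2 counts in shCon and 0 and 4 in shUBXN1, and CDH5 gave 3 and 6 against 0 and 0. Whether these marker levels bear on the results for the network was not tested. In bulk RNA, fewer cells of a kind and less RNA per cell cannot be told apart.

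All 10 members were called at a Benjamini-Hochberg adjusted p under 0.05 in edgeR's quasi-likelihood test, to which every adjusted p given here belongs unless another test is named. MYCL, MXD1, MXD4, MXI1 and MNT were higher in shUBXN1, and MYC, MAX, MXD3, MLX and MLXIP were lower. That made 5 members higher, where 28% of all genes tested were called higher, and 5 lower, where 28.2% of all genes were called lower. In each of the 10 members the 2 shUBXN1 libraries lay outside the range of the 2 shCon libraries, which was so, in the higher direction, for 39.4% of all genes and, in the lower direction, for 38.6%. The methods state thresholds of at least a 2-fold difference at an unadjusted p under 0.05, with limma as the test. Applied here to the edgeR fit, they called 1 member higher (MYCL) and 1 lower (MYC), against 11.8% and 6.09% of all genes. Differences in the other 8 members were therefore smaller than that fold. In limma on log2(TPM + 1) the log2 fold changes of MYC and MYCL were -0.98 and 0.45, which also fell short of it.

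**Figure D1:**
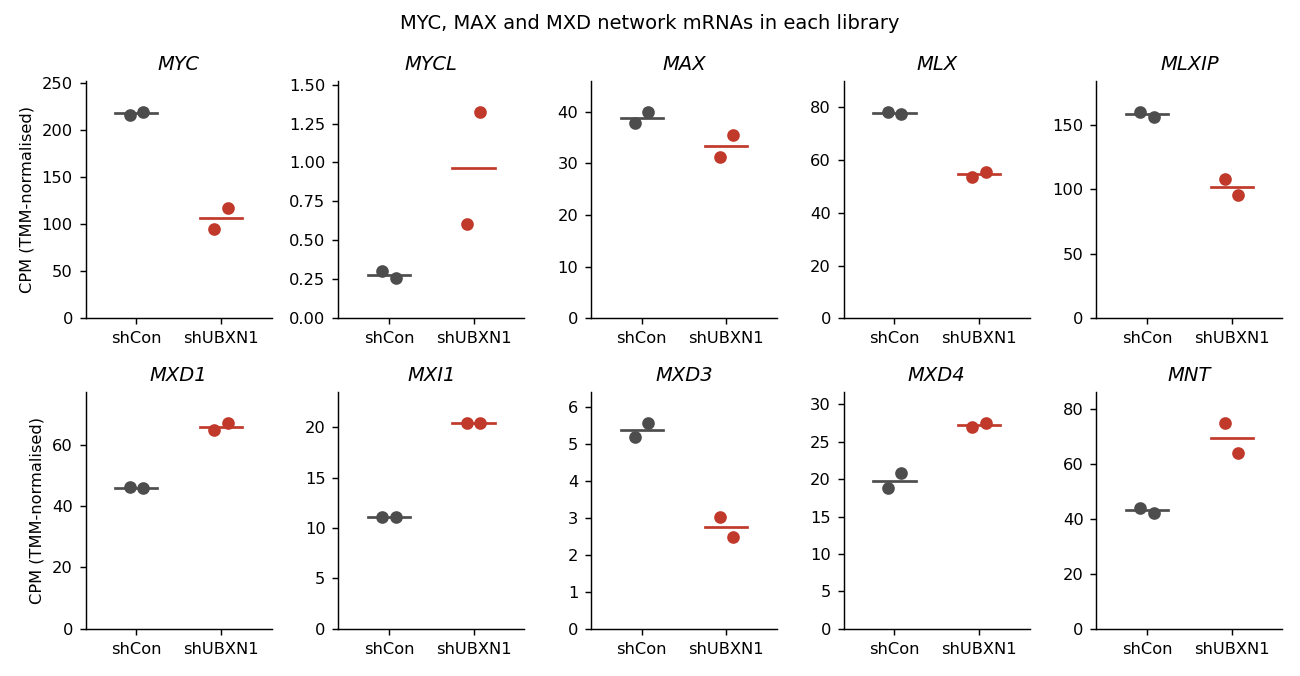
Normalised level (TMM-scaled CPM, linear axis from 0) of each network mRNA in the 2 shCon and 2 shUBXN1 libraries. Points are libraries and bars are group means (n = 2). The groups do not overlap for any of the 10 genes, and the separation that is smallest relative to the level is that of MAX, from 35.4 CPM in the highest shUBXN1 library to 37.8 CPM in the lowest shCon library.

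MYC itself (ENSG00000136997, chr8:127735434-127742951, plus strand, GENCODE v44 on GRCh38) had the highest level per length of the network in both groups. On the CPM scale it measured 216 and 219 CPM in the shCon libraries and 95.2 and 117 CPM in the shUBXN1 libraries. The shCon libraries were close to each other, and both shUBXN1 libraries lay well below them. The log2 fold change was -1.04 (SE 0.0905, adjusted p = 2.99e-07), so that the mean in shUBXN1 was 48.7% of that in shCon. Leaving out each library in turn gave -1.21 to -0.90, and the call held under all 16 alternative settings. The decrease fell short of the fold change of 2 without shUBXN1 replicate 1 (log2 fold change -0.90). It also did so with total count scaling (-0.96) and in limma on log2(TPM + 1) (-0.98).

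MYCL (ENSG00000116990, chr1:39895428-39902256, minus strand), the paralogue first found in small cell lung cancer, was near the lower end of detection. Its transcripts gave 8 and 6 counts in shCon against 15 and 31 in shUBXN1, which corresponded to 0.300 and 0.255 CPM against 0.606 and 1.32 CPM. Replicate 2 carried most of the shUBXN1 counts. The log2 fold change was 1.77 with a large SE of 0.575 (adjusted p = 0.0172). The call was lost in DESeq2 (adjusted p = 0.078), in limma on log2(TPM + 1) (adjusted p = 0.0552) and when shCon replicate 1, shCon replicate 2 or shUBXN1 replicate 2 was left out (adjusted p = 0.0792, 0.107 and 0.295). MYCN, the third MYC paralogue, gave 6 and 1 counts in shCon, 1 and 6 in shUBXN1, and did not pass the filter. MYC was thus the only MYC paralogue of the 3 measured at more than 31 counts in any library.

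MAX (ENSG00000125952, chr14:65006174-65102695, minus strand), the obligate partner of MYC and a partner of its antagonists, moved least. It measured 37.8 and 39.97 CPM in shCon and 31.2 and 35.4 CPM in shUBXN1. The gap between the groups was narrower than that between the shUBXN1 replicates. Its log2 fold change of -0.22 (SE 0.0903) had an adjusted p of 0.048, just under the threshold. The call was lost under 8 of 16 settings, among them DESeq2 (adjusted p = 0.135), total count scaling (log2 fold change -0.14, adjusted p = 0.164) and leaving out shCon replicate 1, shCon replicate 2 or shUBXN1 replicate 1 (adjusted p = 0.0788, 0.263 and 0.221). Of the exon bases of MAX, 16.1% are also covered on the opposite strand by FNTB and other transcripts, and FNTB, a farnesyltransferase subunit, fell by 0.66 on the log2 scale. Since the strand setting of the counting is not given in the sources used here, reads of the 2 genes cannot be told apart there.

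Among the antagonists, 4 of 5 were higher in shUBXN1. MXI1 (ENSG00000119950, chr10:110207605-110287365, plus strand), an antagonist that is induced in many differentiating or hypoxic cells, rose furthest. It measured 11.1 CPM in both shCon libraries and 20.4 CPM in both shUBXN1 libraries. Replicates were nearly identical within each group, and the log2 fold change was 0.88 (SE 0.113, adjusted p = 1.33e-05).

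MNT (ENSG00000070444, chr17:2384073-2401104, minus strand), the broadly expressed antagonist, measured 43.8 and 42.2 CPM in shCon and 75.0 and 63.9 CPM in shUBXN1. The shUBXN1 libraries differed from each other by more than the shCon libraries did, but both lay above them. The log2 fold change was 0.69 (SE 0.0875, adjusted p = 1.18e-05). An antisense transcript (ENSG00000262456) covers 12.2% of its exon bases.

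MXD1 (ENSG00000059728, chr2:69897688-69942945, plus strand), the founding MXD protein, which accumulates as cells leave the cycle, was more uniform. Its level was 46.1 and 45.8 CPM in shCon and 64.7 and 67.1 CPM in shUBXN1, a log2 fold change of 0.52 (SE 0.0754, adjusted p = 4.25e-05). MXD4 (ENSG00000123933, chr4:2247432-2262109, minus strand) rose to a like extent, from 18.8 and 20.9 CPM to 27.03 and 27.6 CPM. Its log2 fold change was 0.46 (SE 0.0996, adjusted p = 0.0012). MXD4 and MNT were the members with the highest GC content of their exons, 60.1% and 59.7%, and the fold changes of all genes moved with GC content. With genes divided into 5 equal bins by GC content, the median log2 fold change was -0.07 in the lowest bin and 0.18 in the highest. After a correction that brought these medians near 0, the log2 fold change was 0.33 for MXD4 (adjusted p = 0.00973) and 0.57 for MNT. A least squares trend, which left the highest bin at a median of -0.16, gave 0.16 for MXD4 (adjusted p = 0.188) and 0.40 for MNT, so that the call of MXD4 depended on how GC content was treated.

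MXD3 (ENSG00000213347, chr5:177301461-177312757, minus strand) was the antagonist that went the other way. Unlike the rest of its family, it is known to be expressed in proliferating cells during S phase. MXD3 measured 5.18 and 5.58 CPM in shCon and 3.03 and 2.48 CPM in shUBXN1. Its log2 fold change was -0.96 (SE 0.231, adjusted p = 0.00271), and it kept the call under all 16 settings. The locus is compact: RAB24, on the same strand, covers 19.5% of its exon bases, and PRELID1, on the opposite strand, covers 24.2%. RAB24, a small GTPase, had a log2 fold change of 0.19 (adjusted p = 0.113), and PRELID1, a mitochondrial lipid carrier, fell by 0.80 on the log2 scale. The share of these neighbours in the reads given to MXD3 was not tested.

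Both members of the MLX branch fell. MLX (ENSG00000108788, chr17:42567072-42573239, plus strand) measured 78.3 and 77.4 CPM in shCon and 53.5 and 55.7 CPM in shUBXN1. Its log2 fold change was -0.51 (SE 0.0740, adjusted p = 4.08e-05). PSMC3IP, a recombination factor encoded on the opposite strand, covers 18.2% of the exon bases of MLX and had a log2 fold change of 0.20 (adjusted p = 0.0908). MLXIP (ENSG00000175727, chr12:122078756-122147344, plus strand) measured 160 and 156 CPM in shCon and 108 and 95.7 CPM in shUBXN1. Its log2 fold change was -0.63 (SE 0.0784, adjusted p = 9.55e-06). The partner genes thus moved in one direction and by similar amounts.

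**Figure D2:**
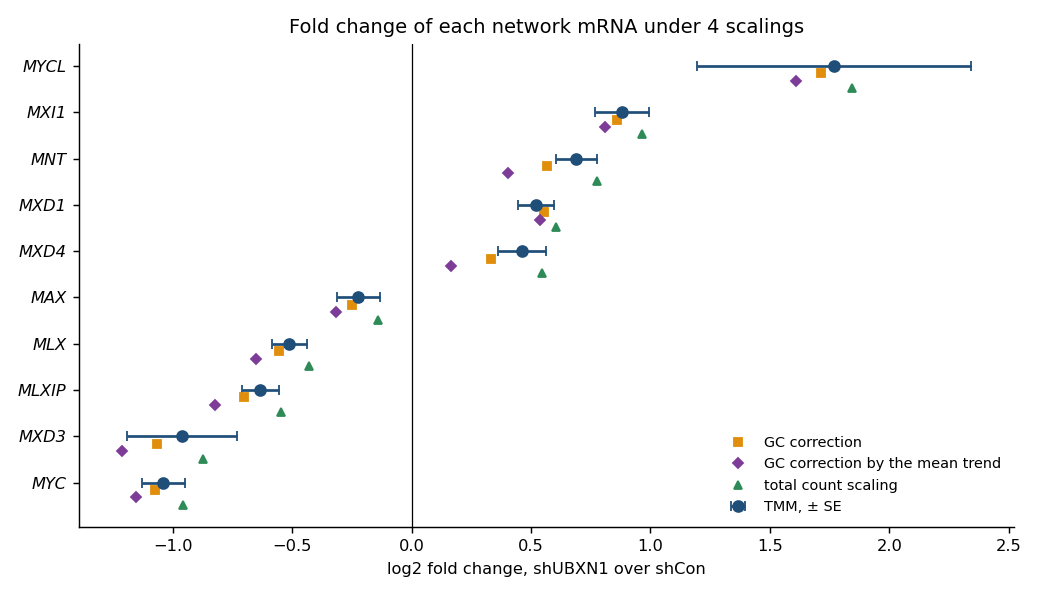
Log2 fold change of each network mRNA, shUBXN1 over shCon (horizontal axis), in the TMM-scaled fit with its SE and under 3 other scalings of the same 4 libraries. No member crosses 0 under any of the 4 scalings; MAX comes nearest, at -0.14 with total count scaling, followed by MXD4, at 0.16 with GC correction by the mean trend.

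To compare levels between genes, TPM, counts scaled for gene length and library size, were computed from the deposited counts and lengths. In shCon the order of mean TPM was MYC (117), MLX (60.4), MAX (38.8), MLXIP (37.8), MNT (17.5), MXD1 (16.6), MXD4 (10.3), MXD3 (7.01), MXI1 (6.42) and MYCL (0.171). The libraries of neighbours in that order overlapped only for MAX and MLXIP. In shUBXN1 the order was MYC (59.3), MLX (44.1), MAX (34.5), MNT (29.6), MLXIP (25.4), MXD1 (24.8), MXD4 (14.7), MXI1 (12.3), MXD3 (3.76) and MYCL (0.611), with overlap between MNT and MLXIP and between MLXIP and MXD1. MXI1 and MXD3 had changed places, and MNT had moved above MLXIP in the means.

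The balance of MYC against its antagonists, taken as mRNA levels per length, shifted in both libraries. The 5 antagonists together measured 58.3 and 57.4 TPM in shCon and 90.4 and 79.9 TPM in shUBXN1. MYC amounted to 2.03 times this sum in each shCon library and to 0.613 and 0.791 times in the shUBXN1 libraries, so that the antagonist transcripts together passed from below to above MYC. The ratio of MYC to MAX was 3.09 and 2.96 in shCon and 1.65 and 1.78 in shUBXN1. MXD3 made up 11.8% and 12.5% of the antagonist sum in shCon and 4.72% and 4.07% in shUBXN1. MLXIP stood at 0.630 and 0.622 times MLX in shCon and at 0.622 and 0.530 times in shUBXN1, a ratio whose libraries met between the groups. With 2 libraries against 2, a two-sided exact permutation test of such a ratio cannot give a p below 0.333, so none of them was tested. These are ratios of mRNA, and protein was not measured in these files.

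**Figure D3:**
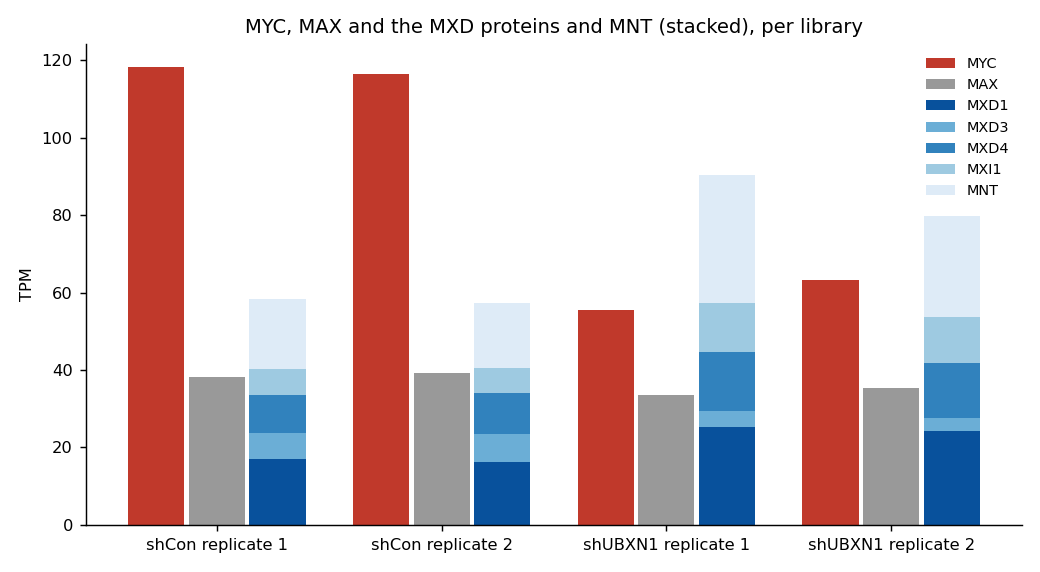
Level per length (TPM, linear axis from 0) of MYC, MAX and the stacked antagonists MXD1, MXD3, MXD4, MXI1 and MNT in each library, as single values without error bars. The MYC bar stands above the antagonist stack in both shCon libraries (118 against 58.3 TPM and 116 against 57.4 TPM) and below it in both shUBXN1 libraries (55.5 against 90.4 TPM and 63.2 against 79.9 TPM).

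Genes around the network were counted in 11 lists written by hand, and each is described by its calls and its median log2 fold change. The lists were written with earlier results of these data known, so their shares are not independent of the data. Over all genes tested the median was 0.02, with 28% called higher and 28.2% called lower, and the share of each list called higher and lower is given to be read against these. Of 6 other transcription factors that share E-boxes or partners with MYC, 1 (16.7%) was higher and 3 (50%) were lower (median -0.09). TFAP4, an E-box factor, measured 26.0 and 26.2 CPM in shCon and 16.5 and 19.3 CPM in shUBXN1 (log2 fold change -0.55, adjusted p = 5.44e-04). ZBTB17 (MIZ1), through which MYC represses genes, fell by 0.47 on the log2 scale (adjusted p = 0.00411) and USF2, a factor that binds the same hexamer, by 0.23 (adjusted p = 0.0289). The call of USF2 was lost with total count scaling (adjusted p = 0.102) and without shCon replicate 2 or shUBXN1 replicate 1 (adjusted p = 0.397 and 0.0619). MGA, the largest MAX partner, was the gene called higher at 0.24 (adjusted p = 0.0289). That call was lost in DESeq2 (adjusted p = 0.0778), in limma on log2(TPM + 1) (adjusted p = 0.164) and without shCon replicate 1, shCon replicate 2 or shUBXN1 replicate 1.

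Of 18 coactivator genes of MYC, 8 (44.4%) were lower and 0 were higher (median -0.13) in edgeR's quasi-likelihood test. In the higher direction, 1 had an unadjusted p under 0.05, DESeq2 called 1 and each of 3 limma fits called 0. WDR77, the partner of the methyltransferase PRMT5, measured 44.9 and 46.4 CPM in shCon and 25.01 and 23.5 CPM in shUBXN1 (log2 fold change -0.91, SE 0.0860, adjusted p = 6.77e-07). ACTL6A, an actin-related subunit of acetyltransferase and remodelling complexes, fell by 0.76 on the log2 scale.

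The corepressor genes that the antagonists recruit were called lower more often than all genes. Their share called higher was near that of all genes (28%). Of 20 SIN3-HDAC subunits, 6 (30%) were higher and 11 (55%) lower (median -0.22), and without shCon replicate 2 the lower calls numbered 6. RBBP4, a histone chaperone, measured 136 and 133 CPM in shCon and 46.4 and 49.0 CPM in shUBXN1 (log2 fold change -1.49, SE 0.0749, adjusted p = 1.67e-09). BRMS1, a further SIN3 subunit, fell by 0.81 on the log2 scale. SIN3A, a scaffold to which the MXD proteins bind, was higher (log2 fold change 0.71, SE 0.0823, adjusted p = 5.00e-06). It measured 65.5 and 59.9 CPM in shCon and 96.8 and 109 CPM in shUBXN1. SIN3B, its paralogue, was named after its value was seen and was not called (log2 fold change 0.03, adjusted p = 0.771). SIN3A thus did not move in one direction with RBBP4 and BRMS1.

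Of 10 subunits of PRC1.6, the Polycomb complex that contains MGA and MAX, 2 (20%) were higher and 6 (60%) lower (median -0.28). L3MBTL2 fell by 0.85 on the log2 scale, from 32.8 and 32.6 CPM to 17.3 and 18.8 CPM. RYBP fell by 0.53 and CBX3, a heterochromatin protein, by 0.41. E2F6, the E2F-family repressor of the complex, was higher at 0.38 (adjusted p = 0.00305), together with MGA. The higher calls numbered 1 without shCon replicate 1 and 0 without shCon replicate 2.

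Among 20 genes that control the stability or synthesis of MYC, 2 (10%) were higher and 10 (50%) lower (median -0.20). SKP2, a ubiquitin ligase subunit that acts on MYC, measured 30.9 and 28.9 CPM in shCon and 11.8 and 11.5 CPM in shUBXN1 (log2 fold change -1.36, SE 0.105, adjusted p = 9.5e-08). AURKA, a kinase that shields MYC proteins from degradation, fell by 0.91 on the log2 scale. FUBP1, which binds the far upstream element of the MYC promoter, fell by 0.82. MYCBP2, a large ubiquitin ligase that associates with MYC, was higher at 0.30 (adjusted p = 0.013) and USP37, a deubiquitinase of MYC that was named after its value was seen, at 0.31 (adjusted p = 0.0157). The higher calls in this list numbered 1 without shCon replicate 1 and 0 without shCon replicate 2.

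Known target genes of MYC were mostly lower. Over 4 target lists with each gene counted once, 74 of 111 genes tested (66.7%) were lower and 9 (8.11%) were higher, with a median log2 fold change of -0.40. For ribosome biogenesis and growth, 47 of 64 genes (73.4%) were lower and 4 (6.25%) higher (median -0.47). FBL, the methyltransferase of the nucleolus, measured 306 and 326 CPM in shCon and 107 and 117 CPM in shUBXN1 (log2 fold change -1.49, SE 0.0790, adjusted p = 2.49e-09). TCOF1, a cofactor of ribosomal RNA synthesis, fell by 1.14 on the log2 scale, and MCM5, a subunit of the replicative helicase, had a log2 fold change of -1.10. NPM1, the nucleolar phosphoprotein, was named after its value was seen and had a log2 fold change of -1.06. The 4 genes called higher were PHB1, RRP12, RCL1 and HK2. PHB1, a prohibitin of the mitochondrial inner membrane, had a log2 fold change of 0.34 (adjusted p = 0.00149). By qRT-PCR in MHCC97H cells, the paper found that UBXN1 knockdown changed the mRNA of this gene, there called PHB, little. It reports a lower level of PHB protein. RRP12 (0.42), RCL1 (0.37) and HK2 (1.21) were named after their values were seen. PHB1 lost its call without shCon replicate 2 (adjusted p = 0.061) and RRP12 with GC correction by the mean trend (adjusted p = 0.0845). RCL1 lost its call under 5 settings, among them DESeq2 (adjusted p = 0.117) and leaving out shCon replicate 1, shCon replicate 2 or shUBXN1 replicate 2 (adjusted p = 0.135, 0.0777 and 0.255). Without shCon replicate 1 and without shCon replicate 2 the higher calls in this list numbered 2 and 1.

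In nucleotide and polyamine synthesis, 15 of 22 genes (68.2%) were lower and 0 were higher (median -0.40) in edgeR's quasi-likelihood test. At an unadjusted p under 0.05 the number higher was 0, as it was in DESeq2 and in each of 3 limma fits. SHMT2, the mitochondrial serine hydroxymethyltransferase, measured 194 and 207 CPM in shCon and 69.7 CPM in both shUBXN1 libraries (log2 fold change -1.52, SE 0.0751, adjusted p = 1.40e-09). IMPDH1, which commits purines to guanine nucleotides, fell by 0.91 on the log2 scale. ODC1, the first enzyme of polyamine synthesis, was named after its value was seen and had a log2 fold change of -0.56 (adjusted p = 4e-05).

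Genes of glucose and glutamine use were divided. Of 14 genes tested, 5 (35.7%) were higher and 6 (42.9%) lower (median -0.14). The amino acid transporters SLC1A5 and SLC7A5, which bring in glutamine and exchange it for essential amino acids, were both lower. SLC1A5 measured 374 and 405 CPM in shCon and 136 and 155 CPM in shUBXN1 (log2 fold change -1.42, SE 0.0846, adjusted p = 7.62e-09). SLC7A5 measured 461 and 471 CPM in shCon and 170 and 187 CPM in shUBXN1 (log2 fold change -1.38, SE 0.0789, adjusted p = 4.96e-09). GPI, the glycolytic isomerase, fell by 0.75 on the log2 scale. The glucose transporter SLC2A1 was higher at 0.48 (adjusted p = 5.15e-05). PFKM (0.44), LDHA (0.30) and the hexokinase HK2 (1.21) were among the other genes called higher and were named after their values were seen. LDHA lost its call without shCon replicate 2 (log2 fold change 0.25). HK2 had 0.600 and 0.638 CPM in shCon and 1.37 and 1.495 CPM in shUBXN1, and it lost its call in DESeq2 (adjusted p = 0.108) and without any 1 of the 4 libraries. The higher calls in this list numbered 3 without shCon replicate 1 and 2 without shCon replicate 2.

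For cell cycle entry, 8 of 14 genes (57.1%) were lower and 1 (7.14%) higher (median -0.26), and 5 were lower without shCon replicate 2. CDCA7, a MYC-responsive chromatin factor, measured 29.7 and 27.3 CPM in shCon and 7.07 and 6.32 CPM in shUBXN1 (log2 fold change -2.09, SE 0.120, adjusted p = 5.54e-09). E2F1 and E2F2, activators of S phase genes, had log2 fold changes of -1.04 and -1.41. CCNE1, the cyclin of the step into S phase, was higher at 0.51 (adjusted p = 0.00135). Without shUBXN1 replicate 1 the higher calls numbered 2. CDK4, the kinase of early G1, was named after its value was seen and had a log2 fold change of -0.52.

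Genes that MYC is known to repress were mixed. Of 18 tested, 8 (44.4%) were higher and 5 (27.8%) lower, the latter near the share of all genes called lower, with a median log2 fold change of 0.21 that became 0.02 after the correction for GC content. GADD45A, a growth arrest and DNA damage response gene, measured 22.7 and 26.0 CPM in shCon and 83.3 and 88.8 CPM in shUBXN1 (log2 fold change 1.82, SE 0.0874, adjusted p = 1.08e-09). HMOX1, the inducible heme oxygenase, went the other way, with 424 and 456 CPM in shCon and 50.8 and 56.5 CPM in shUBXN1 (log2 fold change -3.04, SE 0.0869, adjusted p = 1.20e-11). CEBPA, a liver transcription factor, had a log2 fold change of -1.604. CDKN2C (-1.32), ITGB1 (-0.26) and CCND1 (-0.20) were the other genes called lower, and CDKN1A, which encodes the CDK inhibitor p21, was called higher at 0.48. These 4 were named after their values were seen. ITGB1 lost its call under 3 settings and CCND1 under 5. All 5 genes called lower are thus named, but of the 8 called higher only GADD45A and CDKN1A. Without shCon replicate 1 or without shCon replicate 2 the lower calls numbered 3.

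Targets of MLXIP and its liver paralogue ChREBP were called lower more often than all genes. Their share called higher was not above that of all genes (28%). Of 17 tested, 4 (23.5%) were higher and 9 (52.9%) lower (median -0.29). ARRDC3, an arrestin-domain gene, measured 27.5 and 24.5 CPM in shCon and 67.6 and 72.0 CPM in shUBXN1 (log2 fold change 1.42, SE 0.0861, adjusted p = 8.72e-09). HBP1, a transcriptional repressor, rose by 1.34 on the log2 scale, and ACACA, the first enzyme of fatty acid synthesis, fell by 0.84. KLF10 (0.40) and KHK (1.46) completed the genes called higher. TXNIP, the best known target of MondoA, was low in all libraries, at 2.14 and 1.49 CPM in shCon and 0.647 and 0.342 CPM in shUBXN1. Its log2 fold change was -1.86 (SE 0.464, adjusted p = 0.00346), and the call was lost without shCon replicate 1 (adjusted p = 0.0558). KLF10, KHK and TXNIP were named after their values were seen.

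**Figure D4:**
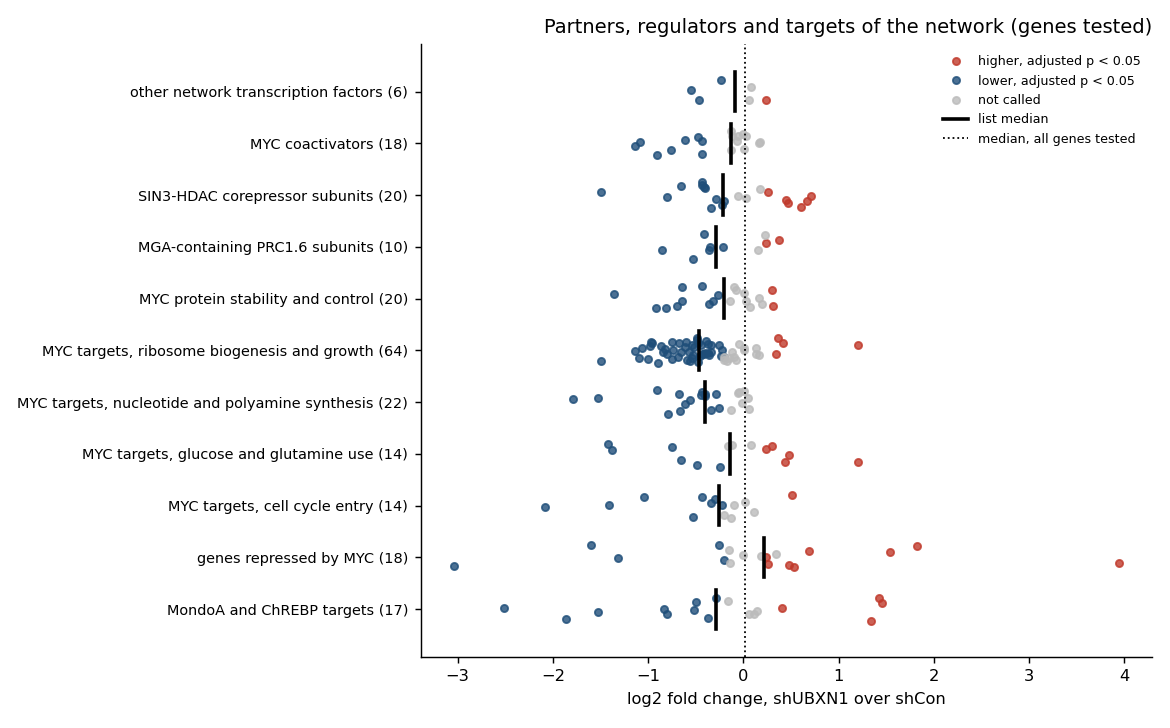
Log2 fold change, shUBXN1 over shCon, of the genes tested in each of the 11 lists around the network, with the number tested in parentheses. Each point is a gene coloured by its call, the thick bar is the list median and the dotted line the median of all genes tested (0.02). The 4 target lists of MYC have medians from -0.47 to -0.14, and the list of genes repressed by MYC is the only list with a median above 0.

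The network and its targets were then searched for the E-box CACGTG in RefSeq promoter windows on GRCh38.p14, from 250 bases before to 50 bases after each start site. The hexamer is its own reverse complement, so that a match lies on both strands. A window was given for 9 of the 10 members, and MXD4, MNT and MLX held the hexamer. Across all 27305 genes with a window, whether tested or not, 8.77% held it in at least 1 window. Of the protein-coding genes tested that had a window, 1343 held it and 9427 did not. Among the MYC targets of the 4 lists, 40 of 94 genes (42.6%) held it. Of the targets tested, 29 of 40 with the hexamer were lower and 3 higher, against 33 lower and 4 higher of 53 without it. Over all protein-coding genes tested, 34.3% of those with the hexamer and 33.2% of those without it were lower. A match describes letters in a window and not an occupied site.

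The sequences of 3 members and 3 targets are shown so that the hexamer can be seen in place, 30 bases each, 5′ to 3′ along the gene, with the E-box in capitals. MXD4 (chr4:2262330-2262359, minus strand) held it 238 bases before the start site, MNT (chr17:2401236-2401265, minus strand) 193 bases before and MLX (chr17:42567038-42567067, plus strand) 50 bases before. CDK4 (chr12:57752499-57752528, minus strand) held it at 216 and at 196 bases before its start site, with a further match outside the bases shown. In ODC1 (chr2:10448024-10448053, minus strand) it lay 29 bases before the start site, with a further match after it, and in SLC7A5 (chr16:87869620-87869649, minus strand) 130 bases before. Of the 6 genes shown, MXD4 and MNT were higher and MLX, CDK4, ODC1 and SLC7A5 lower in shUBXN1. The 3 targets were picked by hand and not by a rule. HK2, LDHA and RCL1, the 3 targets with the hexamer that were called higher, are not shown.
MXD4: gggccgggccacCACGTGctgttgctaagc
MNT: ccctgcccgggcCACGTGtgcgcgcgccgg
MLX: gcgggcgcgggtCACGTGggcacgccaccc
CDK4: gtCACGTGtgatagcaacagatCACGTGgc
ODC1: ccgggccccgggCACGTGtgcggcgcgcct
SLC7A5: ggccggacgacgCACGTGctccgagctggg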

How the data were processed

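RNA of 2 shCon and 2 shUBXN1 libraries of MHCC97H cells was used, grouped by the sample labels. The deposited values are expected counts per gene, which the authors did not normalize, written with 2 decimals beside the length of each gene. The submitters' processing notes name HISAT2 2.0.4, StringTie 1.3.0 and GRCh37, whereas the methods name Hisat2 and GRCh38, and the methods name a TruSeq kit where the labels name another mRNA kit. The counting tool, annotation release and strand setting are not given in the sources used here. Of 61541 gene IDs, 61369 (99.7%) matched GENCODE v44, from which symbols and GRCh38 coordinates were taken. Expected counts were rounded, filtered with filterByExpr, scaled with TMM and tested with edgeR 4.0.16 (glmQLFit, glmQLFTest) under R 4.3.3, without a block, over all 16863 genes, and p-values were adjusted by the Benjamini-Hochberg method. CPM and TPM were computed from the deposited counts. The biological coefficient of variation was 0.0711, and replicates differed by more than counting noise (chi-square per degree of freedom 3.65 in shCon and 7.77 in shUBXN1). GC correction fitted a robust loess trend (span 0.4) of each library's log2 CPM, centred per gene, on exon GC content and used it as an offset; the mean trend used least squares. Tests were checked on simulated counts.

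The members and the gene lists were chosen with earlier results of these data known. From each list, the 3 called genes with the smallest p were named and, where these moved one way, the 1 called gene with the smallest p of the other direction. Genes beyond this rule are marked, and some genes under it are not reported here. Alternatives were DESeq2 1.42.0, limma 3.58.1 (voom, log2(CPM + 1), log2(TPM + 1)), other filters and scalings, a replicate block, GC correction and leaving out each library.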

Additional observations from a re-analysis of the deposited data

How the results depend on the processing

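Of the 10 members, 7 kept their call and direction under all 16 settings. MAX lost it under 8 settings, MYCL under 5 of 15 and MXD4 under 1. At a 2-fold difference and unadjusted p under 0.05 in the edgeR fit, 1 member was called higher and 1 lower. In limma on log2(TPM + 1), both of these members fell short of that fold. Numbers of list genes that moved by more than 1.5 times are given next. Under DESeq2, the higher calls were 0 for other transcription factors, 1 for coactivators, 1 for PRC1.6, 1 for MYC stability and 2 for ribosome biogenesis. Under limma on log2(TPM + 1) they were 0 for other transcription factors, 1 each for PRC1.6 and stability and 2 for cell cycle entry. Total count scaling, which moved the median of all genes to 0.10, gave 2 higher coactivators, 5 stability genes and 2 cell cycle genes. At least 10 counts in every library gave 2 higher coactivators and 4 stability genes. The GC correction, with and without the replicate block, gave 1 higher coactivator. The mean GC trend, chosen after seeing the data, gave 13 lower coactivators and 2 higher ribosome biogenesis genes. Leaving out 1 library gave 4 to 5 members in each direction, 0 to 1 higher other factors, 0 to 2 higher coactivators, 6 to 11 lower SIN3-HDAC genes, 0 to 3 higher PRC1.6 genes, 0 to 2 higher stability genes, 1 to 4 higher ribosome biogenesis genes, 2 to 5 higher glucose genes, 1 to 2 higher and 5 to 8 lower cell cycle genes and 3 to 6 lower repressed genes. Beyond these settings' own construction the cause was not tested. Replicate differences of the 2 groups correlated at 0.04 across genes, so the numbers did not pair the libraries. The replicate block gave 1 higher coactivator, 5 members higher and 5 lower, and changed no other number of list calls by over 1.5 times. Of 56 other called genes chosen for naming, 41 kept their call under every setting. With 2 libraries per group, small differences such as that of MAX were at the limit of the design.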
